A study of Mus musculus with 4 samples.

Results

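The glycolytic enzymes described here are 10 named genes of the NIH3T3 mouse fibroblast line, Hk2, Gpi1, Aldoa, Tpi1, Gapdh, Pgk1, Eno1, Eno3, Pkm and Ldha. All probe sets that the platform annotation pairs with a listed gene and no other were taken, on both array types, and Affymetrix control probe sets were kept apart. This gave 13 probe sets of 8 genes, among 13057 non-control probe sets and 6137 named genes in all. Of the 13 probe sets, 3 were on the first array type and 10 on the second, which the sample titles mark MB. Gpi1 and Eno1 had no probe set under their symbol alone, so only their promoter windows are counted here.

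Glycolysis is the cytosolic route that turns glucose into pyruvate and lactate, and the transcripts of its enzymes are among the more abundant in cultured fibroblasts. Hexokinase traps glucose, aldolase and triose phosphate isomerase produce the triose that Gapdh oxidises, and phosphoglycerate kinase, enolase and pyruvate kinase carry it to pyruvate. Lactate dehydrogenase then reduces pyruvate to lactate. Several steps have isozymes with tissue preferences, such as Eno3, the enolase of adult muscle, and Eno1, the form found in most cells. Many of these genes respond to the hypoxia factor HIF and to Myc.

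The samples come from a stable line of NIH3T3 cells, immortalised mouse fibroblasts, that holds wild-type PKR behind a promoter shut off by tetracycline. PKR is the kinase that senses double-stranded RNA and phosphorylates the translation factor eIF2 alpha. In the withdrawn condition tetracycline had been removed for 5 h to switch PKR on, and the serum content is not given. In the tetracycline condition the cells grew in DMEM with 5% FCS and 1 µg/ml tetracycline. Both conditions use the same transgenic line, and neither a line without the transgene nor the species of the PKR sequence is given in the labels. The question was which transcripts differ after PKR is induced. Total RNA of each condition was hybridised to 1 array of each type, so there are 4 arrays, no replicates and no p-values.

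The values are linear intensities as deposited, and the number of arrays limits their precision. A change is the log2 ratio of withdrawn to tetracycline within an array type, so negative values mean lower after withdrawal. Probe sets counted as measured when both arrays lay over a floor set at percentile 25 of the pooled intensities, which was 130 for the first type and 80.0 for MB. A stricter control floor, percentile 95 of the bacterial and yeast controls, lay at 281.5 and 340.4. Different probe sets bind with different efficiency, so their intensities are set side by side and not ranked. The single Eif2ak2 probe set, which names the PKR gene, read 663.6 after withdrawal and 643.3 with tetracycline, and as it may not detect the transgene it does not check the labels. Of the fibroblast markers, all 10 genes had a probe set above the control floor on both arrays, so the labelled cell type's markers were present.

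Promoter windows of 3 members are shown: Eno3 was lower by far more than the others, Hk2 was the only measured member that was higher, and Ldha is an abundant enzyme whose window had the most matches of any member, so it does not stand for the others. Each window runs from 250 bases before to 50 bases after the annotated start, 5′ to 3′ on the gene's strand, from RefSeq on GRCm38.p6. Capitals mark ACGTG and GCGTG, forms of the HIF core site, on either strand. The Hk2 window is chr6:82774405-82774704 on the minus strand, the Eno3 window chr11:70656926-70657225 on the plus strand and the first of 2 Ldha windows chr7:46845554-46845853 on the plus strand.
Hk2: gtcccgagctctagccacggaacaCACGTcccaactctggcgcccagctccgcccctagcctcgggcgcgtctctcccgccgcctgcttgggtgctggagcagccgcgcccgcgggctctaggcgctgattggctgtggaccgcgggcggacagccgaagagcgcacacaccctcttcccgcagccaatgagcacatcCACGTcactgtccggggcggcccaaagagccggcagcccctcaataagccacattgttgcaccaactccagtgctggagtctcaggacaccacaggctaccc
Eno3: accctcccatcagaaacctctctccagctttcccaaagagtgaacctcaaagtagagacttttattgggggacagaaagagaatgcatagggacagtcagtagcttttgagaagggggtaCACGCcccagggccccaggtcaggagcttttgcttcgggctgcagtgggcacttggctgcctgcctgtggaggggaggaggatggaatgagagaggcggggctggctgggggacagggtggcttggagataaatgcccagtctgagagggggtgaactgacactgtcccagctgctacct
Ldha: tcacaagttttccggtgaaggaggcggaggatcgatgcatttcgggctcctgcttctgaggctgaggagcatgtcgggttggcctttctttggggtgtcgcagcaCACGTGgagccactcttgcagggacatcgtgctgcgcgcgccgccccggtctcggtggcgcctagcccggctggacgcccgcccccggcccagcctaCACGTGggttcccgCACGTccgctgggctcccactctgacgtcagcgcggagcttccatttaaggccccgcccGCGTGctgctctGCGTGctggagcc
The printed Ldha window held 5 matches to ACGTG and 2 to GCGTG, and the second one, which is not printed, 0 and 2. Of the ACGTG matches, 4 came from a pair of CACGTG E-boxes, the Myc-type site, at positions -145 and -48 from the start, since CACGTG contains ACGTG on both strands. The Hk2 window held 2 matches to ACGTG, at -226 and -52, and 0 to GCGTG. The Eno3 window held 0 matches to ACGTG and 1 to GCGTG, at -130. The 8 genes with a probe set had 12 windows in the RefSeq table, and windows of the same gene can overlap. ACGTG occurred in 7 of these 12 windows (58.3%), against 19.6% of all 32851 windows. GCGTG occurred in 4 (33.3%), against 32.4% of all windows. CACGTG occurred in the printed Ldha window alone (8.33%), against 7.15%, and TGATGNAA, a form of the ATF4 composite site, in 0 of 12, against 3.97%. The GC box GGGCGG was in 7 of 12 windows (58.3%), against 35.7%. Over all 16 windows of the 10 listed genes, Gpi1 and Eno1 included, ACGTG was in 7 (43.8%) and GCGTG in 7 (43.8%). GGGCGG was in 10 of the 16 (62.5%). The same ACGTG match of Aldoa is counted in overlapping windows. Of the 12 windows, 11 were also richer in G and C than most, with a range of 52.7% to 67.3%, against a median of 52.7% over all windows, and the motif shares were not matched for this. These matches describe letters in the windows and not binding.

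Most of the measured members read slightly lower after withdrawal. On the MB type, 9 of 10 member probe sets were lower, where 47.5% of all 4360 measured probe sets were lower, and the members' median log2 change was -0.20. These 10 hold pairs from Aldoa, Pkm and Ldha. By gene over both types, 6 of 7 measured members were lower, where 50.4% of 4507 measured genes were. On the first type both measured probe sets were lower, where 51.1% of 4402 were, with a median of -0.32. The medians over all measured probe sets were 0.025 on the MB type and -0.012 on the first type. Only Eno3 was lower by at least 2-fold, and no member was higher by 2-fold. The shares of all measured probe sets at least 2-fold lower were 6.65% on the MB type and 4.02% on the first type, and those at least 2-fold higher 8.46% and 4.36%.

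**Figure D1:**
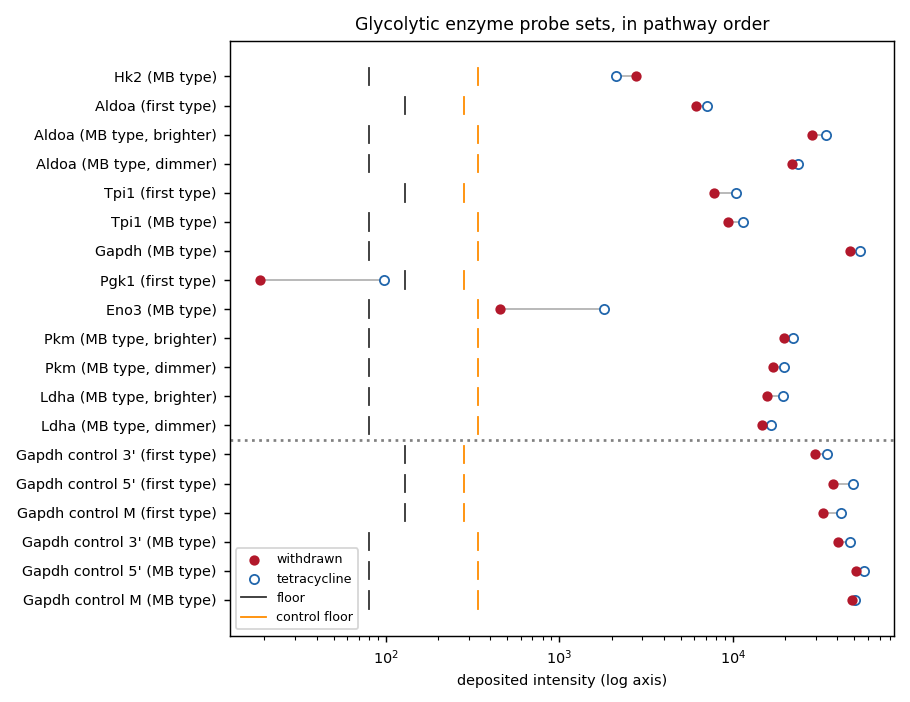
Deposited intensity (log axis) of each probe set of the glycolytic enzymes, from the first steps of the pathway at the top to lactate dehydrogenase, with the Gapdh control probe sets below the dotted line. Filled points are the withdrawn array and open points the tetracycline array of the same type, and short bars mark the floor and control floor of that type. Eno3 (453.2 withdrawn, 1818.9 tetracycline) is set apart by the distance between its points, Pgk1 lies below the floor on both arrays, and Hk2 is the only member whose withdrawn point lies to the right, under the deposited scaling.

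Hk2, the inducible hexokinase of muscle, fat and tumour cells, catalyses the entry step. Its probe set on the MB type read 2782 after withdrawal and 2109.2 with tetracycline. This is 1.32-fold higher, a log2 change of 0.40, and it was above 0 under each scaling tried. For comparison, the 200 probe sets nearest in level had a median change of -0.016 and a spread of 0.30, where the spread is a robust SD (scaled median absolute deviation) that holds probe noise and real differences together. Hk2 thus lay 1.37 spreads above its neighbours. With 1 array per condition this difference cannot be set against replicate error.

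Aldoa, the aldolase that splits fructose bisphosphate into triose phosphates, had 3 probe sets. The brighter probe set on the MB type read 28634.1 after withdrawal and 34310.2 with tetracycline (log2 change -0.26). The dimmer read 21881.2 after withdrawal and 23675 with tetracycline (-0.11). On the first type the values were 6121.7 after withdrawal and 7127.9 with tetracycline (-0.22). All 3 were lower as deposited. Once the trend with intensity was removed by loess the brighter MB probe set was at -0.14 and the dimmer level (0.0002), and the first-type probe set turned positive (0.053) when the arrays were scaled to beta-actin. Both MB probe sets cite the same sequence record, so they are not independent.

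Tpi1, the isomerase that interconverts the triose phosphates, was the abundant member with the largest change. On the first type it read 7781.7 after withdrawal and 10438.2 with tetracycline, 25.4% lower (log2 change -0.42). On the MB type it read 9359.1 after withdrawal and 11434.6 with tetracycline, 18.2% lower (-0.29). Both probe sets were lower under each scaling tried, but by less on the MB type with quantile scaling (-0.18) and on the first type with beta-actin scaling (-0.15). As deposited the types differed by 0.13 on the log2 scale. The first-type change lay 1.13 spreads below that of its 200 neighbours (median -0.10, spread 0.28), and the MB change 0.71 spreads below.

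Gapdh, the dehydrogenase at which glycolysis makes NADH, is often used as a loading control. Its only non-control probe set, on the MB type, read 47518.1 after withdrawal and 53682 with tetracycline, a log2 change of -0.18 and 0.34 spreads below its neighbours. The array makers' own Gapdh controls target the 3′ end, the middle and the 5′ end of the transcript. On the first type they read 29574.3, 33134.1 and 37957.1 after withdrawal, against 35016.3, 41770 and 49229.2 with tetracycline. The log2 changes were -0.24, -0.33 and -0.38 in that order. On the MB type they read 40256.6, 48262 and 51045.3 after withdrawal, against 47229.2, 50571.1 and 57025.8 with tetracycline. Here the changes were -0.23, -0.067 and -0.16. All 6 were lower with the deposited scaling, to a greater extent on the first type.

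The beta-actin controls, a second housekeeping transcript on the same arrays, shifted as well. On the first type the 3 Actb controls changed by -0.34 to -0.21, with a mean of -0.27, close to the -0.32 of the Gapdh controls. On the MB type they changed by -0.081 to -0.022, with a mean of -0.058, against -0.15 for Gapdh. With the trend with intensity removed, the non-control Gapdh probe set changed by -0.042 (loess) and -0.054 (quantile), against -0.18 as deposited. Controls of the opposite strand, which should not bind the labelled target, read between 74 and 1081.3 after withdrawal and between 80.7 and 626.1 with tetracycline for Gapdh over both types. The same controls for Actb read between 456.2 and 695.2 after withdrawal and between 68.8 and 773.5 with tetracycline. Both ranges reach above the control floor of either type.

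Pgk1, the kinase of the first ATP-yielding step, was not measured. Its single probe set, on the first type, read 18.8 after withdrawal and 97.7 with tetracycline, both below the floor of 130. No change is given for it. The transcript is usually abundant in proliferating cells, and whether this probe set detects it was not tested.

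Eno3 differed most. It read 453.2 after withdrawal and 1818.9 with tetracycline on the MB type, 4.01-fold lower, a log2 change of -2.005. Both readings were above the control floor of 340.4, where 0.767% of 2738 probe sets were at least 2-fold lower (1.29% of 3555 on the first type). The 200 probe sets nearest in level had a median change of 0.090 and a spread of 0.41, which puts Eno3 5.06 spreads below them. On the withdrawn MB array 4 of the 6 opposite-strand controls of Gapdh and Actb read higher than Eno3 (564.8 to 810.1), and on the tetracycline array 0 of 6 did. The withdrawn reading is thus within the range of non-specific signal, and the size of the fold is uncertain. The change was at least 2-fold under each floor and scaling tried. It rests on 1 probe set on 1 pair of arrays.

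Because Eno3 is a muscle isozyme, skeletal muscle markers were read beside it. Of 23 markers, 17 had a probe set, 11 were measured and 5 had a probe set above the control floor on both arrays. Of the 11 measured genes, 9 were lower, where 50.4% of all 4507 measured genes were, and 1, the acetylcholine receptor subunit Chrna1 (-1.14), was lower by 2-fold, where 4.22% of genes were. Of the 5 above the control floor 3 were lower, with a median of -0.0071, against -0.33 over the 11. These 5 were Myog (-0.47), Mb (-0.33), Myod1 (-0.0071), Ckm (0.23) and Tnnc2 (0.38). Chrna1 read 111.2 after withdrawal and 245.2 with tetracycline, below the control floor on both. The markers' summed intensity was 5873.9 after withdrawal and 5952.6 with tetracycline on the MB type, and 3012.2 after withdrawal and 2922 with tetracycline on the first type, and no marker read 0. The creatine kinase Ckm, which was singled out after its values were seen, read 2920.9 and 1285.3 after withdrawal on its 2 probe sets, against 2663.7 and 1022.1 with tetracycline. Most of the MB sum came from Ckm. Without it the sum was 1667.7 after withdrawal and 2266.8 with tetracycline, 26.4% lower, against 1.32% lower with it. As Ckm was higher after withdrawal, leaving it out lowers this ratio in any case. Of the 10 MB probe sets, 5 read below the control floor on both arrays, and none of these was of Ckm. Background may thus make up part of the sum without Ckm. The part of muscle-like cells in the Eno3 reading was not tested. In RNA from whole cultures, fewer cells with a transcript and less of it per cell cannot be told apart.

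Pkm, pyruvate kinase of muscle and proliferating cells, makes the last ATP of the pathway. The brighter of its MB probe sets read 19776.5 after withdrawal and 22152.6 with tetracycline (log2 change -0.16). The dimmer read 16913.6 after withdrawal and 19720.1 with tetracycline (-0.22). As deposited the pair differed by 0.058 on the log2 scale. Loess brought the brighter to -0.052 and the dimmer to -0.11, and quantile scaling brought them to -0.066 and -0.042. Nothing in the files tells the splice forms M1 and M2 apart.

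Ldha, the lactate dehydrogenase subunit that favours lactate formation, also had a pair of MB probe sets. The brighter read 15676.1 after withdrawal and 19455.8 with tetracycline (log2 change -0.31). The dimmer read 14640.4 after withdrawal and 16675.1 with tetracycline (-0.19). They were lower by 19.4% and 12.2% as deposited. Under loess the changes shrank to -0.20 and -0.083, and under quantile scaling to -0.18 and -0.13.

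**Figure D2:**
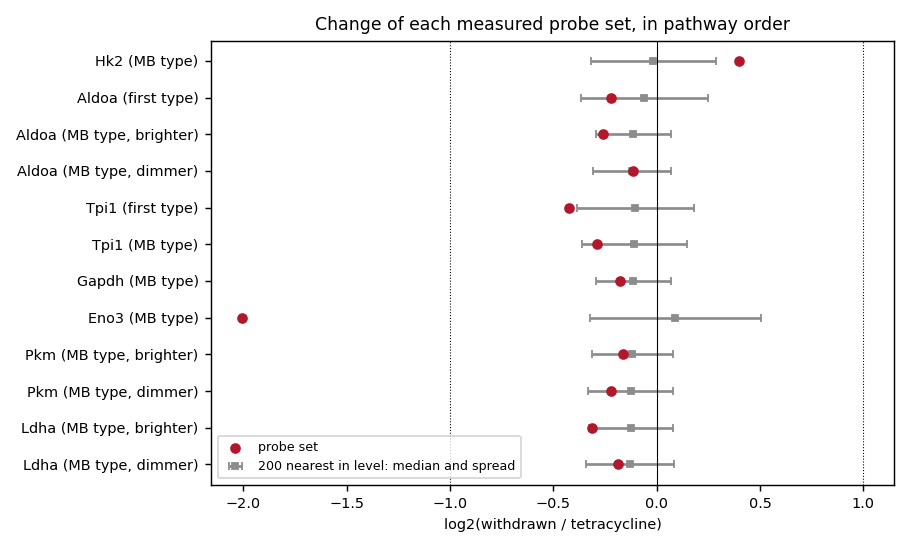
Change on the log2 scale, withdrawn over tetracycline, of the 12 measured probe sets in pathway order (points), with the median and spread of the 200 probe sets nearest in level (squares and bars). Dotted lines mark 2-fold. The 10 probe sets of Aldoa, Tpi1, Gapdh, Pkm and Ldha sit between -0.42 and -0.11 under the deposited scaling, mostly inside the bars, while Hk2 lies to the right of its bar and Eno3 far to the left. Under loess the dimmer MB probe set of Aldoa moved to 0.0002, and with beta-actin scaling the first-type Aldoa probe set to 0.053.

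The 10 probe sets of these 5 abundant enzymes lay in a narrow range, lower by 7.58% to 25.4% as deposited. All 10 were among the brightest 10% of their array type. In that stratum 61.4% of 653 probe sets were lower on the first type and 63.9% of 654 on the MB type, with median changes of -0.088 and -0.084. Relative to the 200 nearest in level, 9 of 10 lay below the neighbours' median and 9 of 10 within 1 spread of it. The neighbours' medians ran from -0.13 to -0.059, and their spreads from 0.18 to 0.31.

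All 10 also carry the suffix that marks a family probe set in the Affymetrix naming scheme, for probes that may match related sequences. Several of these genes, Gapdh above all, have processed pseudogenes in the mouse genome, so their signals may be shared. Family probe sets made up 6.27% of the first type and 22.6% of the MB type. Within the brightest stratum, 81.9% of 149 family probe sets were lower on the first type and 70.0% of 307 on the MB type, with medians of -0.20 and -0.11. Of the other bright probe sets, 55.4% and 58.5% were lower. With loess the median change of the 10 probe sets was -0.13 and with quantile scaling -0.14, against -0.22 as deposited. The part of probe kind was not tested.

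**Figure D3:**
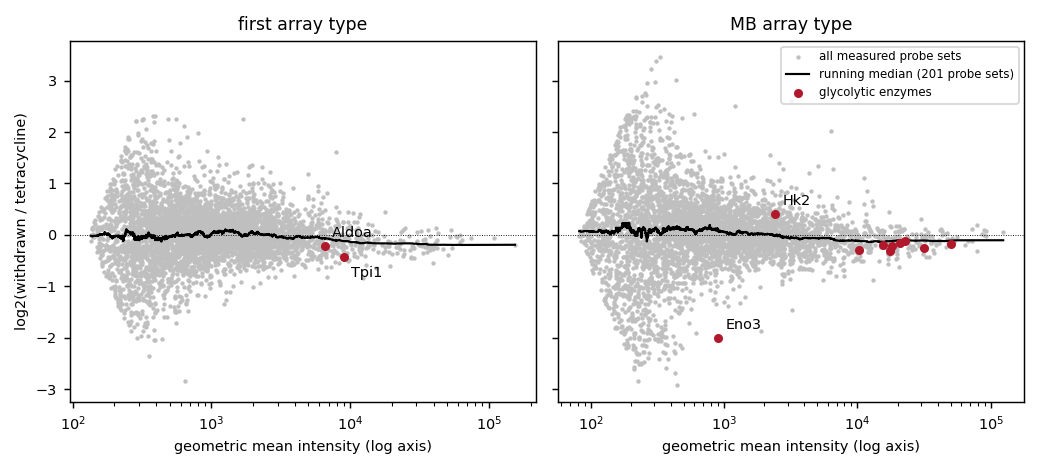
Change on the log2 scale against the geometric mean intensity (log axis) for each measured probe set, in 1 panel per array type, with the running median in black and the glycolytic enzymes as large points. The running median falls below 0 among bright probe sets on both types, and the abundant enzymes lie close to it under the deposited scaling, with Hk2 above it and Eno3 far below.

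Probe sets of the same gene give a measure of probe-level error. Among genes with several probe sets in the brightest 10%, the SD of the change between them had a median of 0.15 over 22 genes on the first type and of 0.082 over 31 genes on the MB type. The abundant enzymes' changes of -0.42 to -0.11 were larger than this on each of the 10 probe sets as deposited. Their neighbours in level were also lower, however, with medians of -0.13 to -0.059. Relative to these medians, 0.082 was not reached on the MB type by Gapdh (-0.063), the brighter Pkm (-0.045), the dimmer Ldha (-0.058) or the dimmer Aldoa (0.0055). The other MB probe sets (-0.19 to -0.096) still exceeded it. On the first type Tpi1 (-0.32) and, narrowly, Aldoa (-0.16) exceeded 0.15. Such an SD leaves out differences between cultures, RNA preparations and hybridisations. The 31 MB genes also include Aldoa, Pkm and Ldha themselves. A median SD is exceeded by many genes, so passing it does not set a change apart from probe-level error. Of 171 genes measured above the control floor on both array types, 101 (59.1%) had the same direction on both and 64 (37.4%) were lower on both. Their changes on the types were only weakly correlated (Pearson r 0.13, Spearman rho 0.18). Aldoa and Tpi1, the only members measured on both types, were lower on both.

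The other enzymes of glycolysis differed little. Of 20 listed genes, 10 had a probe set and 8 were measured, 5 of them lower and 3 higher, none by 2-fold in either direction (5.26% of all measured genes were at least 2-fold higher). Their median was -0.12, against -0.0037 over all measured genes. It turned to 0.054 with beta-actin scaling and to 0.0091 on the MB type alone, where only Hk1, Ldhb and Bpgm were measured. Pgam1, the mutase between Pgk1 and enolase, read 1505.4 after withdrawal and 1972.5 with tetracycline (log2 change -0.39). Pfkl, a subunit of the committed step phosphofructokinase, read 4373.5 after withdrawal and 5033.8 with tetracycline (-0.20). Pfkm, the muscle subunit, changed by -0.37 and was under the control floor after withdrawal.

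Isozymes of the same steps are set side by side. Hk1, the constitutive hexokinase, read 13377.2 after withdrawal and 16076.3 with tetracycline on the first type (-0.27), but 14628 after withdrawal and 14536.1 with tetracycline on the MB type (0.0091), against 0.40 for Hk2. Eno2, the neuronal enolase, changed by 0.23, against -2.005 for Eno3. Ldhb, the other lactate dehydrogenase subunit, had MB probe sets at -0.47 and 0.24, which disagreed. Gapdhs, the sperm form, changed by 0.34 and was under the control floor with tetracycline. Bpgm, the red cell mutase, changed by 0.49 and was under the control floor on both arrays. Differences between isozymes were not tested.

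The lists for transport and for pyruvate entry had medians on either side of 0, under each scaling tried. Of the 10 transport genes, 7 had a probe set and 4 were measured, 1 lower and 3 higher, with a median of 0.18 and none past 2-fold. Slc2a1, the glucose transporter of most cultured cells, changed by -0.15, and the lactate transporter Slc16a1 by 0.028. Bsg, the chaperone of lactate transporters, changed by 0.38, and Slc2a8 by 0.33. Of the 17 genes that control flux or pyruvate entry to mitochondria, 5 were measured, 4 lower and 1 higher, with a median of -0.41. Pdha1, a subunit of pyruvate dehydrogenase, and Pdk1, a kinase that inactivates it, both changed by -0.41. Pfkfb2, which sets the level of the phosphofructokinase activator, changed by -0.46 and the shared subunit Dld by 0.059.

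In the pentose phosphate pathway, 6 of 11 genes were measured, 5 lower and 1 higher, with a median of -0.21 (0.063 with beta-actin scaling). Tkt, the transketolase that links this pathway back to glycolysis, was the only gene past 2-fold as deposited. It read 873 after withdrawal and 1872.3 with tetracycline on the first type, 2.14-fold lower (log2 change -1.10) and 3.10 spreads below its neighbours. Its reading after withdrawal lay within the range of the opposite-strand controls, which reached 1081.3 there. With beta-actin scaling Tkt was at -0.83, short of 2-fold. The dehydrogenase Pgd (-0.22) and the lactonase Pgls (-0.24) were lower by less, and the isomerase Rpia was higher (0.48).

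Genes of gluconeogenesis, glycogen and glycerol phosphate had a median above 0 under each scaling tried. Of 21 listed, 10 were measured, 3 lower and 7 higher, with a median of 0.30. Gpd1, which draws triose phosphate into glycerol phosphate, was the only gene past 2-fold as deposited. It read 1194.6 after withdrawal and 581.1 with tetracycline on the MB type (log2 change 1.04), but fell short of 2-fold with quantile scaling (0.96), loess (0.95) and the pseudocount (0.93). Pck2, the mitochondrial PEP carboxykinase, read 938.6 after withdrawal and 503.2 with tetracycline (0.90). With beta-actin scaling Pck2 (1.17) and Pgm2 (1.01) passed 2-fold. The phosphoglucomutase Pgm2 changed by 0.74 as deposited and the glycogen synthase Gys1 by 0.50. Both readings of Pck2 and Pgm2, and that of Gpd1 with tetracycline, lay within the range of the opposite-strand controls. Pyruvate carboxylase had a non-control probe set on the first type that was not measured, at 294.2 after withdrawal and 69.8 with tetracycline. Its array controls were higher on all 4 of the first type (0.25 to 1.21) and on 2 of 4 of the MB type (-0.38 to 0.79). They read between 130 and 1448.9.

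In the citric acid cycle and malate shuttle, 11 of 19 genes were measured, 7 lower and 4 higher, with a median of -0.24 (0.036 with beta-actin scaling). Mdh1 (-0.46), Got2 (-0.41), Sdhb (-0.34) and Suclg1 (-0.31), enzymes of the cycle or the shuttle, were lower. Got1, the cytosolic aminotransferase of the shuttle, was past 2-fold (1.36), but with tetracycline it read 247, below the control floor.

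Regulators were also read. Of 16 HIF and Myc regulators, 9 were measured, 2 lower and 7 higher, with a median of 0.29. Myc read 1705 after withdrawal and 1133.6 with tetracycline (log2 change 0.59). Hif1a read 1103.8 after withdrawal and 905.8 with tetracycline (0.29). Vhl, which targets HIF for degradation, read 660 after withdrawal and 381.6 with tetracycline (0.79), both within the range of the opposite-strand controls. Mlx was lower (-0.27). Arnt (1.69) and Arnt2 (1.16), the HIF partner subunits, passed 2-fold but were below the control floor with tetracycline. Of 17 other hypoxia targets, 9 were measured, 5 lower and 4 higher, with none past 2-fold and a median of -0.011, which turned positive with quantile, median ratio, loess and beta-actin scaling. Ndrg1 (0.87) and Ddit4 (0.39) were higher, and Tfrc (-0.56) and Higd1a (-0.11) lower.

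**Figure D4:**
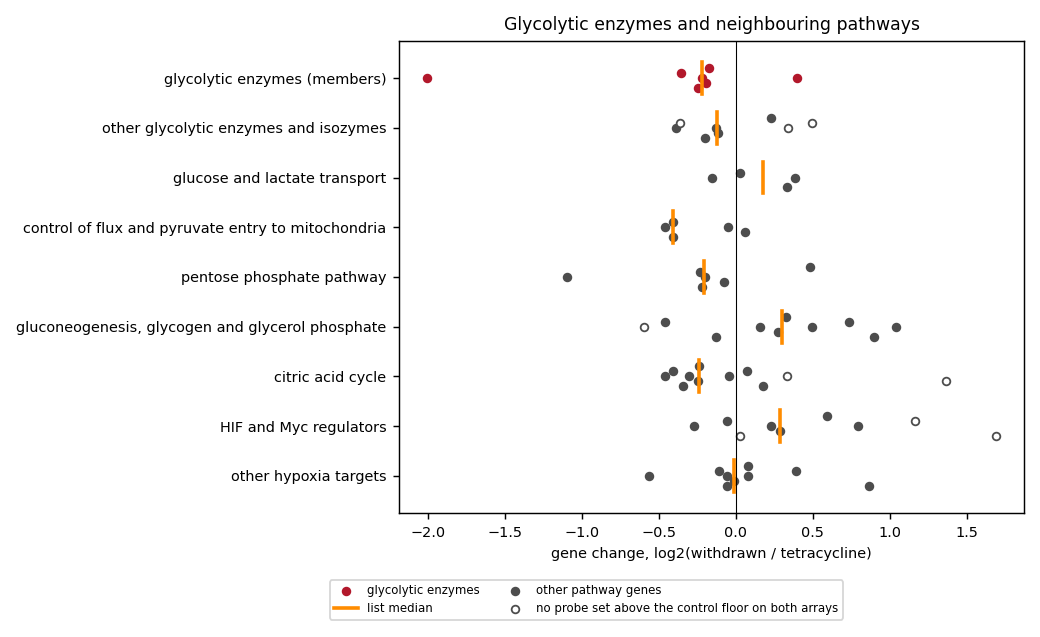
Change per gene on the log2 scale, withdrawn over tetracycline, for the measured glycolytic enzymes (top row) and 8 lists of neighbouring pathways, 1 point per gene and a bar at each list's median, under the deposited scaling. Open points are genes with no probe set above the control floor on both arrays. The median of the glycolytic enzymes is -0.22, and those of the gluconeogenesis and glycogen list (0.30) and of the HIF and Myc regulators (0.29) lie to the right of 0.

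Other cell markers were read on the same arrays. Fibroblast markers were lower in 8 of 10 genes, where 50.4% of all measured genes were. Their median was -0.28, and none changed by 2-fold. Most of these markers were among the brightest 10% of their array type, but Col3a1, Pdgfra and Pdgfrb were not. Of all probe sets that bright, 61.4% (first type) and 63.9% (MB) were lower, with medians of -0.088 and -0.084. For bright family probe sets, such as those of Col1a1, Fn1 and Sparc, the shares were 81.9% and 70.0%. Whether the markers differed from other bright probe sets was not tested. Leukocyte markers had 6 of 11 genes measured, 3 lower and 3 higher. Cd3g (-1.33) and Cd79b (-1.13) were lower by 2-fold, where 4.22% of all measured genes were. Of the 4 genes above the control floor on both arrays 1 was lower, with a median of 0.16. These were Ptprc (-0.96), Cd14 (0.088), Cd3e (0.24) and Lyz2 (0.38). Cd3g was under the control floor on both arrays and Cd79b after withdrawal. The sums that follow are over all leukocyte probe sets. The leukocyte markers' summed intensity was 2047.7 after withdrawal and 2314 with tetracycline on the first type, and 3760.6 after withdrawal and 3529.1 with tetracycline on the MB type. Most of the MB sum came from Cd14, which read 3425.7 after withdrawal and 3222.2 with tetracycline. Epithelial markers had 2 of 7 genes measured. Krt14 (1.15), higher by 2-fold where 5.26% of all measured genes were, was below the control floor with tetracycline. Krt8 was lower (-0.42), with -0.40 on the first type, where it was above the control floor.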

How the data were processed

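Total RNA of 1 NIH3T3 line in 2 conditions was measured on 4 arrays, 1 per condition and array type. The deposited tables hold linear intensity values. No label or header names the software, with background correction and scaling also not given in the sources used here. The 2% trimmed means of non-control probe sets were 1000.4 (withdrawn) and 999.9 (tetracycline) on the first type and 997.3 (withdrawn) and 996.6 (tetracycline) on the MB type, so the intensities were used unscaled, by a rule that allowed a gap of 5%. Controls (61 per type, 39 of them bacterial or yeast) were left out, which left 6523 and 6534 probe sets. Of these, 5541 and 2001 had 1 gene symbol, 197 and 27 had several and 785 and 4506 had none. Symbols were updated through Entrez identifiers against the RefSeq table of GRCm38.p6, which matched 5532 and 1993.

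Changes are log2 ratios without a pseudocount. A gene took the median over its measured probe sets on both types. Named are all members and all measured enzymes of the second list. In the other pathway lists, genes past 2-fold are named, and up to 4 with the largest change above the control floor. In the marker lists the rule named only genes past 2-fold. Ckm and the other markers given were named outside this rule. No test was possible with 1 array per condition, and no p-value is given. The members and lists were chosen with earlier results of these data known. The counting was tested on simulated data, with changes larger than 2-fold planted in probe sets well above the floor. Changes as small as those of most members, or near the floor, were not covered. The settings tried were scaling by the 2% trimmed mean, by quantiles, by the median ratio and by loess (span 0.4), other floors (64.9 and 40.0, 259 and 160, the control floor, none), a pseudocount of 100, limits of 1.5-fold and 3-fold, the brightest probe set per gene, each array type alone and the list without Eno3. Scaling to the beta-actin controls was chosen after seeing the data. Scripts ran in Python 3.11.15 with pandas 2.3.3 and numpy 2.4.6, loess came from statsmodels 0.14.6 and plots from matplotlib 3.10.9.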

Additional observations from a re-analysis of the deposited data

How the results depend on the processing

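Under the planned scalings, floors and the pseudocount, the member probe sets had the same direction, except that the dimmer MB probe set of Aldoa was at 0.0002 after loess. Scaling to beta-actin moved the median of all probe sets to 0.25 (first type) and 0.080 (MB). Under it the first-type Aldoa probe set turned to 0.053, 1 of the first-type member probe sets was lower, and 3 of the other glycolytic enzymes were lower and 5 higher, with a median of 0.054. It also turned the medians of the pentose phosphate (0.063), citric acid cycle (0.036) and hypoxia target lists (0.26). The hypoxia target median was also positive with quantile (0.042), median ratio (0.0015) and loess scaling (0.048). Over the 6 settings that can change a log2 ratio, 70 of 72 recomputed member changes kept their direction and 2 did not, but the median of the abundant enzymes shrank to -0.13 with loess and to -0.14 with quantile and beta-actin scaling, against -0.22. Named pathway genes that lost 2-fold were Tkt and Cd79b with beta-actin scaling, Gpd1 with quantile scaling and loess, and Gpd1, Arnt2, Chrna1, Cd3g, Cd79b and Krt14 with the pseudocount, while Pck2, Pgm2, Vhl and Ndrg1 passed it with beta-actin scaling. The members' median ran from -0.23 to -0.098 on the MB type, with -0.19 without Eno3, and from -0.42 to -0.049 on the first type. With no floor, Pgk1 entered and 1 first-type member was lower by 2-fold. At the higher floor and at the control floor 1 of the other glycolytic enzymes was higher. On the MB type alone only Hk1, Ldhb and Bpgm of that list were measured, 1 of them lower (median 0.0091). There the citric acid cycle list held only 1 measured gene, at 0.52, whose first-type probe set was at -0.17. Why these results moved was not tested. No paired analysis was possible because a condition holds a single array per type, and leaving out an array would leave no comparison. Intensities near the control floor limit Eno3 after withdrawal, Arnt, Got1 and most muscle markers. Vhl, Pck2 and Pgm2 read within the range of the opposite-strand controls on both arrays, Gpd1 with tetracycline and Tkt after withdrawal.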
